A study of Mus musculus with 4 samples.

Results

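The acute phase protein genes examined in mouse lung endothelial cells (ECs) were Saa1, Saa2, Saa3, Lcn2, Orm1, Orm2, Hp, Lbp, Ptx3 and Serpina3n, 10 of the 24063 gene symbols in the tables. They were taken by symbol, and each symbol was represented by the transcript that was chosen by its measured counts, as the highest when summed over the 4 libraries. All 10 symbols had only 1 transcript, so the counts made no choice among transcripts, but the group of genes was named with earlier results of these data known. Their values are therefore a description of these libraries and not independent evidence about acute phase proteins.

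Acute phase proteins are secreted proteins whose plasma level changes during infection, surgery and tissue injury. The liver makes most of them in response to interleukin 6 and interleukin 1 family cytokines, which act through the transcription factors STAT3, C/EBP and NF-kB, with glucocorticoids as a co-signal. Several, among them serum amyloid A3, lipocalin 2 and pentraxin 3, are also made outside the liver, by macrophages, epithelium, fibroblasts, fat and endothelium.

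ECs came from C57BL6J mice, labelled as 8 week old males, either 7 days after left pneumonectomy (PNX) or after a sham operation, which opened the chest and left the lung in place. The labels give no time after surgery for the sham mice. The labels name no transgene, and both operations were followed by the analgesic meloxicam, itself an anti-inflammatory drug. Each group had 2 libraries and each library pooled the cells of 2 mice, so p values measure the spread between 2 pools and not between single animals. Cells were captured with anti-CD31 beads and checked by the authors as CD31+ VE-cadherin+ CD45-, and whether they were cultured before RNA extraction is not clear from the methods. In bulk RNA, more cells of a type and more RNA per cell cannot be told apart.

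Libraries held between 41367438 and 50952879 counts on the transcripts used, and 3 counts, the smallest level these depths can show, were 0.0589 to 0.0725 CPM, that is counts scaled to library size, with counting error alone considered. Replicates were close, with a median SD of 0.045 on the log2 scale, and none stood apart from its partner. Per gene, the mean chi-square of the counts against a split by normalized library size was 1.77 between sham and 1.54 between PNX replicates. Those values are not far above counting error alone, so the p values rest on a small spread. Between sham replicate 1 and PNX replicate 1 the mean chi-square was 134. The labelled sex was at odds with the counts in every library, since each of the 44 genes on chromosome Y was at 0 counts. Xist, the RNA that silences an X chromosome in female cells, ranged from 31873 to 33793 normalized counts and was picked with its values known. This held for sham and PNX libraries alike.

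After PNX the 10 genes split into a few that were far higher and several that hardly moved. Saa3 was higher by 136-fold, Ptx3 by 4.51-fold and Orm1, at very low counts, by 4.39-fold. Serpina3n was higher by 1.89-fold, whereas Lcn2, Lbp and Hp differed from sham by 13.2% or less and Saa1, Saa2 and Orm2 overlapped between the groups. Counts were normalized with TMM factors and brought to a common library size. Called genes met both thresholds of the study, an adjusted p under 0.01 in edgeR's quasi-likelihood test and a log2 fold change of more than 1 up or down, with all genes in the fit. SE stands for the standard error of the log2 fold change. Of the 10 genes, 8 passed the filter on low counts and 3 of these were called higher, while 5.90% of all 16208 genes tested were called higher. Orm1 reached the cutoff of that filter in the PNX libraries alone, where it was high, so its place among the 3 is partly set by the filter and the count supports nothing about the group. None of the 8 was called lower, against 1.66% of all genes, and 7.56% of all genes were called in either direction. At any fold, 57.1% of all genes tested had an adjusted p under 0.01, and 5 of the 8 did so, a share near this background. The median log2 fold change of the 8 was 0.55, beside 0.00 over all genes tested. That share and that median include Orm1, so they too support nothing about the group.

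**Figure D1:**
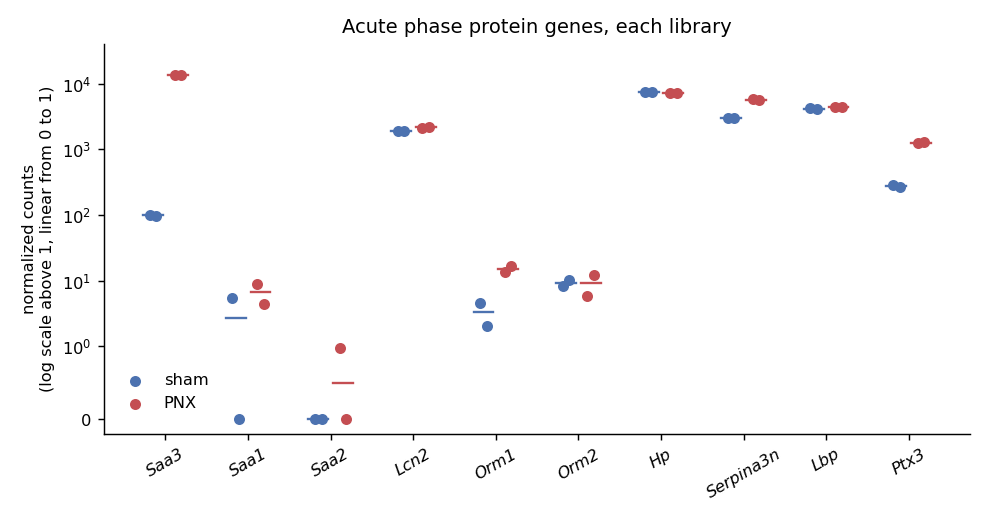
Normalized counts of the 10 genes in each of the 4 libraries (y axis, log scale above 1 and linear from 0 to 1), with sham in blue, PNX in red and a line at each group mean. Saa3 moved from near 98.8 to near 13453 normalized counts, whereas Hp, Lcn2 and Lbp lay at nearly the same height in both groups.

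Serum amyloid A proteins are small apolipoproteins that travel with high density lipoprotein. Saa1 and Saa2 are the liver's plasma forms, while Saa3 is the form made in other tissues of the mouse. The 3 genes and Saa4 lie together on chromosome 7, with Saa3 at chr7:46711998-46719615 on the minus strand, Saa1 at chr7:46740497-46743181 on the minus strand and Saa2 at chr7:46751833-46754313 on the plus strand (mm10, RefSeq), each with 4 exons.

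Normalized counts of Saa3 were 99.7 and 97.9 in sham ECs against 13624 and 13282 after PNX. Both PNX libraries lay far above both sham libraries, and the replicates of a group lay close together. The means were 98.8 ± 1.27 (SD, n = 2) and 13453 ± 242 (SD, n = 2), for a log2 fold change of 7.09 (SE 0.046, edgeR adjusted p = 6.3e-74). Among the 16208 genes tested, 5 had a higher log2 fold change. The ratio of the summed counts, 25784 over 206 after scaling to library size, was 136 with an exact counting interval of 119 to 157.

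The plasma forms were near the limit of detection. Saa1 had 6 and 0 counts in sham and 9 and 4 counts in PNX libraries, so that the groups overlapped and the ratio of 2.36 had an exact counting interval of 0.836 to 7.57. Saa2 had 0 counts in both sham libraries and 1 and 0 counts in the PNX libraries, which lies under the floor of 3 counts and allows no fold. Neither passed the filter on low counts and neither was tested. Saa4, the form present in plasma without inflammation, had 0 counts in both sham libraries and 5 and 2 counts after PNX, and was not tested either.

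Members of this family are alike in sequence, so reads could be shared among them. Aligned transcripts of Saa1 and Saa2 were 94.4% identical, and those of Saa3 were 69.6% identical to Saa1 and 70.6% to Saa2. No 75-base window of the Saa3 transcript occurred in another gene and 4.81% of its 36-base windows did, all in Saa1 or Saa2. For Saa1 and Saa2 these shares were 4.67% and 4.70% of 75-base windows and 24.6% and 21.7% of 36-base windows. The split of reads between Saa1 and Saa2 is uncertain to that extent, whereas most of the Saa3 transcript belongs to Saa3 alone.

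The promoters of Saa3 and Saa1 are shown to compare a gene called higher with a close relative near the floor. Each window runs from 250 bases before to 50 bases after the RefSeq start site (GRCm38.p6, the build of mm10), 5′ to 3′ on the gene's own strand. Capitals mark matches to C/EBP (TTGCNNAA) or NF-kB (GGNNTTTCC), searched on both strands, with TTNNGCAA and GGAAANNCC as their reverse. The Saa3 window is chr7:46715627-46715926 (minus strand), inside the annotated span of the gene, which begins further upstream. The Saa1 window is chr7:46742931-46743230 (minus strand), and lies partly inside the annotated span of that gene, which also begins upstream of the start site used.
Saa3: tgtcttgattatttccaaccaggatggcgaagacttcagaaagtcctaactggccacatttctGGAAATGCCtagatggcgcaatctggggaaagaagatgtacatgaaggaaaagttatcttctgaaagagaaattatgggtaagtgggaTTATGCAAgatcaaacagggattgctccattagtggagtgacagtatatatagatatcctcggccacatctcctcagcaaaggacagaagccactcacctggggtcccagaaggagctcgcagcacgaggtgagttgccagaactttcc
Saa1: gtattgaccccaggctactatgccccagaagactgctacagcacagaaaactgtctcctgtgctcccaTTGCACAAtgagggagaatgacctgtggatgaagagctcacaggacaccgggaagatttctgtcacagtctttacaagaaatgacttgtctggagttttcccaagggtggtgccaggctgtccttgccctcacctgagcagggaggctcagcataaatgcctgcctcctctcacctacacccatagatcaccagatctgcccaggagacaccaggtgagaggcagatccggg

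The Saa3 window held a C/EBP match from base -99 to -92 and an NF-kB match from base -187 to -179, counted from the start site as base 0. The Saa1 window held a C/EBP match from base -182 to -175 and no NF-kB match, as did that of Saa2, with its C/EBP match from base -183 to -176. The windows of Saa1 and Saa2 were 96.0% identical when aligned, and that of Saa3 was 61.0% identical to Saa1. Such short matches are common, since C/EBP letters occurred in 10.8% and NF-kB letters in 5.82% of 32851 windows of the same length, and a match describes letters and not binding.

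Ptx3 encodes pentraxin 3, the long pentraxin, which binds microbes, complement C1q and matrix proteins and is made at sites of inflammation. It is a relative of the liver's short pentraxins C-reactive protein (Crp) and serum amyloid P (Apcs). Ptx3 lies at chr3:66219887-66225806 on the plus strand, with 3 exons.

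In sham libraries Ptx3 stood at 290 and 266 normalized counts and after PNX at 1238 and 1277, with no overlap. The means were 278 ± 16.9 (SD, n = 2) and 1258 ± 27.4 (SD, n = 2), for a log2 fold change of 2.17 (SE 0.065, edgeR adjusted p = 4.3e-38). The liver's pentraxins were barely present, with Crp at 2 counts in a single sham library and 0 elsewhere and Apcs at 0 counts in every library.

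Ptx3 lies inside Veph1 on the opposite strand, but none of its 2682 exon bases fell in a Veph1 exon. Veph1 had between 58.0 and 86.6 normalized counts in the 4 libraries and its groups overlapped (log2 fold change 0.23, SE 0.18, edgeR adjusted p = 0.259). No window of the Ptx3 transcript occurred in another gene. The promoter of Ptx3, chr3:66219637-66219936 (plus strand), is shown because its C/EBP match, in capitals from base -57 to -50, lies closest to the start site among the 7 genes with a window.
Ptx3: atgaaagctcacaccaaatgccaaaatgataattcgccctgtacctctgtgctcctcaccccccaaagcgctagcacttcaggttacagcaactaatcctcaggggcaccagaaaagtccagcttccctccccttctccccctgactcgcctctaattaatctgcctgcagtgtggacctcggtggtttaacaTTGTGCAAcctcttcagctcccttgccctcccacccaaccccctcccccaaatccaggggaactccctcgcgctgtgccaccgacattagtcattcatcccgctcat

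Serpina3n encodes a secreted serine protease inhibitor, a mouse counterpart of human alpha-1-antichymotrypsin that inhibits granzyme B and neutrophil proteases. It lies at chr12:104406646-104414334 on the plus strand, with 5 exons, in a cluster of similar Serpina3 genes.

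Both sham libraries had 3003 normalized counts of Serpina3n, and the PNX libraries had 5815 and 5542. The PNX libraries were thus clearly apart from sham, with means of 3003 ± 0.00959 (SD, n = 2) and 5679 ± 193 (SD, n = 2). An SD of 0.00959 from 2 libraries lies far below the counting error of such counts and understates the spread. The same holds for other very small SDs given here. The log2 fold change of 0.92 (SE 0.029, edgeR adjusted p = 7.7e-37) missed the fold threshold of 1, and with 12 endothelial markers as the scaling reference it was 1.12, which passes it. Of its transcript, 1.46% of 75-base windows and 16.9% of 36-base windows occurred in 12 other Serpina3 genes or pseudogenes, so its counts could hold some of their reads.

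The promoter of Serpina3n, chr12:104406458-104406757 (plus strand), is shown as that of a gene that was higher after PNX, short of the fold threshold, and held no C/EBP match. The annotated span of Serpina3n also begins upstream of the start site of this window. Capitals mark an NF-kB match from base -170 to -162 and a match to the glucocorticoid receptor half-sites (ACANNNTGT, the same letters on either strand, in 6.85% of all windows) from base -76 to -68.
Serpina3n: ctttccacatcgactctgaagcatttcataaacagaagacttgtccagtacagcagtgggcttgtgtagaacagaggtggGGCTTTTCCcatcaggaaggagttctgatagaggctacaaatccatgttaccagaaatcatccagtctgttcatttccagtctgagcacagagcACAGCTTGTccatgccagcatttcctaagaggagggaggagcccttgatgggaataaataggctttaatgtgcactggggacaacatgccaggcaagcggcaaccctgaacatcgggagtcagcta

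Of the 10 genes, 7 had a RefSeq promoter window and Orm1, Hp and Lbp had none. C/EBP letters occurred in 6 of the 7 windows, which included those of Lcn2, whose level hardly moved, and of Orm2, which did not pass the test. NF-kB letters occurred only in the windows of Saa3 and Serpina3n among the 7. The glucocorticoid receptor letters occurred only in those of Serpina3n and of Lcn2, in the latter from base -152 to -144. The letters TTCNNNGAA, a STAT site found in 8.30% of all windows, occurred in none of the 7, which says only that they are absent from these windows.

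**Figure D2:**
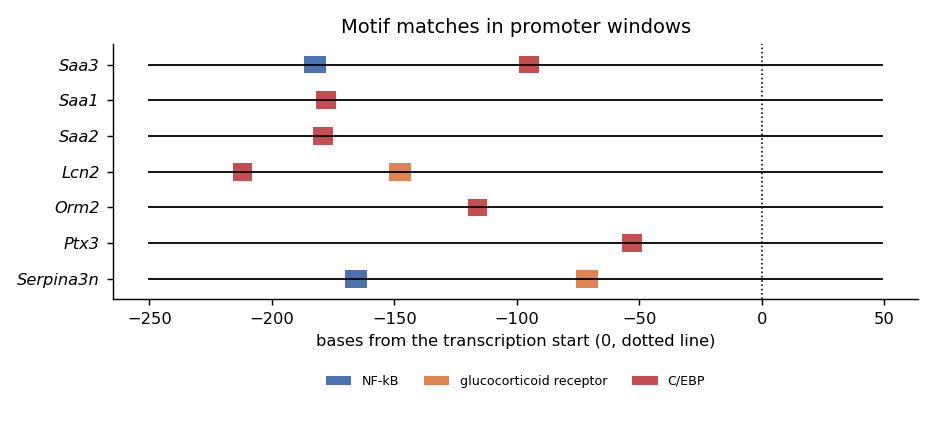
Motif matches in the 7 promoter windows (x axis, bases from the transcription start, with the dotted line at base 0). Boxes mark C/EBP in red, NF-kB in blue and the glucocorticoid receptor in orange, and 6 of the 7 windows hold a C/EBP box, at distances that differ from gene to gene.

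Lipocalin 2 (Lcn2) and the orosomucoids (Orm1, Orm2) belong to the lipocalins, secreted carriers with a binding pocket for small ligands. Lcn2 binds bacterial siderophores and so withholds iron, and it is stored in neutrophil granules and made by inflamed epithelium. Orosomucoids, also called alpha-1-acid glycoproteins, bind drugs and lipids in plasma.

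Lcn2, at chr2:32384637-32387739 on the minus strand, had 1867 and 1921 normalized counts in sham and 2141 and 2145 in PNX libraries. The groups did not overlap, and the means of 1894 ± 37.8 (SD, n = 2) and 2143 ± 2.61 (SD, n = 2) differed by 13.2%. Its log2 fold change was 0.18 (SE 0.037, edgeR adjusted p = 2.8e-05), past the p threshold and far from the fold threshold. Neutrophil markers, which are named here because neutrophils store the protein, were measured for 11 genes, of which 1 was called higher (Mmp8) and none lower. At any fold, 5 of the 11 were higher and 4 lower with an adjusted p under 0.01, the latter including the granule protein genes Ltf (log2 fold change -0.54), Camp (-0.56) and Ngp (-0.33). The summed level of the 11 markers, of which S100a9, Csf3r and S100a8 were the most abundant, was 243 to 247 CPM in sham and 274 to 279 CPM in PNX libraries, and its part in the Lcn2 difference was not tested.

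Orm1, at chr4:63344556-63348163 on the plus strand, had only 5 and 2 counts in sham and 14 and 15 in PNX libraries. The normalized means were 3.28 ± 1.76 (SD, n = 2) and 15.2 ± 2.09 (SD, n = 2), without overlap, and the log2 fold change was 2.13 (SE 0.56, edgeR adjusted p = 0.000647). It entered the test only through the PNX libraries, since both sham libraries lay under the filter's cutoff, so the test is conditioned on the difference. The ratio of the summed counts was 4.51 with an exact counting interval of 1.93 to 12.2. The call depended on single libraries and on the tool, with an adjusted p of 0.0246 without sham replicate 2, of 0.0248 without PNX replicate 2 and of 0.0455 in DESeq2's Wald test.

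Orm2, the neighbouring gene at chr4:63362449-63365877 on the plus strand, had 9 and 10 counts in sham and 6 and 11 in PNX libraries. The 2 PNX libraries lay on either side of the sham libraries, the log2 fold change was -0.04 (SE 0.51, edgeR adjusted p = 0.955), and the exact counting interval of the ratio was 0.476 to 1.98. Orm3, a pathway gene of the same family, had 38 and 16 counts in sham and 12 and 10 in PNX libraries, and was called lower with a log2 fold change of -1.16 (SE 0.38, edgeR adjusted p = 0.0060). Aligned transcripts of Orm1 and Orm2 were 91.0% identical, and 25.7% and 30.8% of their 36-base windows occurred in another gene, so the split of these few reads among the family is uncertain.

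Haptoglobin (Hp) binds free hemoglobin in plasma and hands it to the macrophage receptor CD163. Lipopolysaccharide binding protein (Lbp) carries bacterial lipopolysaccharide to CD14 and Toll-like receptor 4. Both are major liver products, and both were well expressed in these preparations.

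Hp, at chr8:109575128-109579172 on the minus strand, had 7421 and 7544 normalized counts in sham and 7150 and 7132 in PNX libraries. The means of 7483 ± 86.4 (SD, n = 2) and 7141 ± 12.5 (SD, n = 2) differed by -4.54%, a log2 fold change of -0.07 (SE 0.023, edgeR adjusted p = 0.0103) that missed both thresholds and that turned to 0.14 when counts were scaled to the 12 endothelial markers. Lbp, at chr2:158306493-158332852 on the plus strand, had 4230 and 4056 normalized counts in sham and 4389 and 4343 in PNX libraries. Its means were 4143 ± 123 (SD, n = 2) and 4366 ± 32.0 (SD, n = 2), for a log2 fold change of 0.07 (SE 0.028, edgeR adjusted p = 0.0179), so neither gene was called.

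Since the liver is the main source of these proteins, 12 hepatocyte markers were read beside them. Their summed level was 3.16 and 3.27 CPM in sham and 4.65 and 4.33 CPM in PNX libraries. Cyp2e1, the most abundant of the 12, went from 74.1 ± 6.72 to 141 ± 1.39 (SD, n = 2) normalized counts (log2 fold change 0.92, edgeR adjusted p = 3.9e-07), short of the fold threshold. Apoc3, Fgb, Serpina1c and Cyp3a11 were at 0 counts in every library, and Alb, the albumin gene, averaged 19.6 ± 0.397 (SD, n = 2) normalized counts in sham and 18.8 ± 10.9 (SD, n = 2) in PNX libraries. Of the 5 hepatocyte markers that could be tested, 1 was called lower (Apob, which passed the filter through the sham libraries alone) and none higher. Hp alone made up 0.0162% of the counts of the sham libraries.

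**Figure D3:**
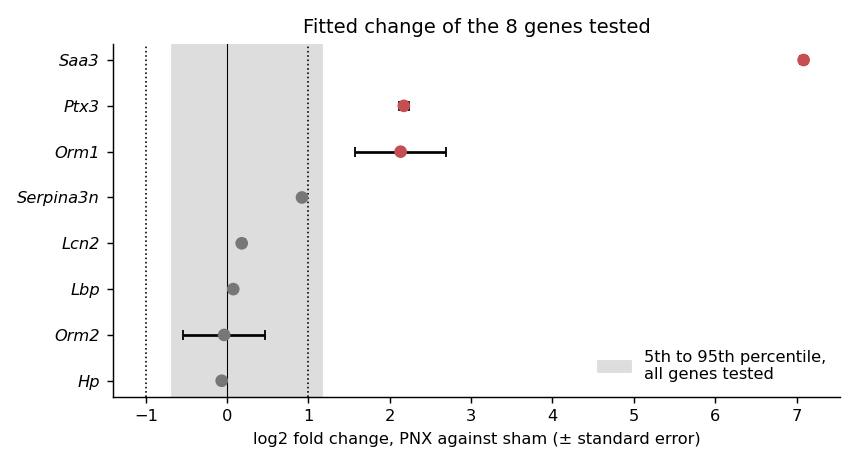
Fitted log2 fold change of the 8 genes that passed the filter on low counts (x axis, PNX against sham, bars are ± 1 standard error), with called genes in red and dotted lines at the fold threshold. Saa3 stands at 7.09, Ptx3 and Orm1 at 2.17 and 2.13, and the other 5 lie in the grey band, the 5th to 95th percentile of all genes tested from -0.68 to 1.17.

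Levels were compared between genes on the authors' FPKM scale, which divides by transcript length. In sham ECs the order of the mean FPKM was Hp at 75.6, Lcn2 at 30.2, Lbp at 22.3, Serpina3n at 19.6, Saa3 at 2.53, Ptx3 at 1.96, Orm2 at 0.161, Saa1 at 0.0608, Orm1 at 0.0581 and Saa2 at 0. Of the neighbours in that order, only Saa1 and Orm1 overlapped between libraries. After PNX the order was Saa3 at 346, Hp at 72.5, Serpina3n at 37.2, Lcn2 at 34.3, Lbp at 23.6, Ptx3 at 8.94, Orm1 at 0.271, Orm2 at 0.160, Saa1 at 0.150 and Saa2 at 0.0110, and only Orm2 and Saa1 overlapped.

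Saa3 thus passed from the fifth place among the 10 genes to the top. Among all symbols it moved from place 10519 to place 72 by mean FPKM, beside a move from 11240 to 5762 for Ptx3 and from 535 to 591 for Hp. The 10 genes together took 367 and 367 CPM in sham and 746 and 732 CPM in PNX libraries, a ratio of 2.01. Saa3 was 0.589% and 0.579% of that sum in sham and 39.6% and 39.3% in PNX libraries, and without it the ratio was 1.23.

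Other genes with a pattern like that of Saa3 were sought among the 13396 genes that averaged 100 or more normalized counts, by the Euclidean distance of the centred log2 counts over the 4 libraries. The closest were Arg1 (arginase 1, distance 0.264), Cfd (adipsin, 1.32), Cd5l (1.53), Ccl24 (a chemokine, 1.54) and Col24a1 (a fibrillar collagen, 1.64). Arg1 went from 93.2 to 10726 mean normalized counts, which is a log2 fold change of 6.84 (SE 0.049), and the other 4 had log2 fold changes between 5.54 and 5.77. For Lcn2 the closest were Hars, Gnas, Cct4, Piga and U2af1, at distances from 0.0064 to 0.0102, all with log2 fold changes from 0.17 to 0.19. With 4 libraries in 2 groups, such a distance mainly ranks genes by the size of the difference between PNX and sham.

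Further acute phase proteins were read from a list of 51 genes, of which 31 could be tested. Of these, 9 were called higher (C3, C4b, Cfb, A2m, Serpina3i, Lrg1, Steap4, Agt and Tnfaip6), 2 were called lower (Orm3 and Reg3g) and 20 were not called. Shares over all genes tested were 5.90% higher and 1.66% lower, and the list's median log2 fold change was 0.32. The rises included complement, with C3, the central component, at 22883 ± 485 (SD, n = 2) normalized counts in sham and 83443 ± 1055 (SD, n = 2) in PNX libraries (log2 fold change 1.87, SE 0.018, edgeR adjusted p = 5.0e-65). Cfb, the protease of the alternative pathway, went from 1611 ± 2.66 to 6861 ± 20.3 (SD, n = 2; log2 fold change 2.09) and C4b, of the classical pathway, from 5540 ± 187 to 18292 ± 413 (SD, n = 2; 1.72).

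Steap4, a metalloreductase induced by cytokines, averaged 300 ± 4.20 (SD, n = 2) normalized counts in sham and 1893 ± 58.0 (SD, n = 2) in PNX libraries, the highest log2 fold change on this list at 2.66 (SE 0.058, edgeR adjusted p = 1.5e-45). Tnfaip6, a hyaluronan-binding protein, had a log2 fold change of 1.78 (SE 0.089), Serpina3i, a neighbour of Serpina3n, of 1.38 (0.21) and Lrg1, a secreted leucine-rich glycoprotein that acts in vessel growth, of 1.08 (0.033). Reg3g, a secreted antibacterial lectin of mucosal epithelium, was lower, at 412 ± 10.6 and 200 ± 14.8 (SD, n = 2) normalized counts (log2 fold change -1.04, SE 0.092). With scaling to endothelial markers neither Reg3g nor Orm3 was called lower.

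The most abundant genes of the list that were not called were Trf (transferrin, log2 fold change 0.42), Serping1 (C1 inhibitor, 0.32), Cp (ceruloplasmin, -0.03, edgeR adjusted p = 0.184) and S100a9 (0.16). The 20 genes not tested were largely liver products, among them Crp, Fga, Fgb, Fgg, Hamp, Ttr and Serpina1a to Serpina1e, and 5 of the 20 were at 0 counts in every library (Apcs, Fgb, C9, Mug1 and Serpina1c).

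Cytokines and transcription factors that induce acute phase genes were read from 34 genes, of which 33 could be tested. Of these 2 were called higher (Il6 and Lif), a share near the 5.90% of all genes, 31 were not called, and the median log2 fold change was 0.11. At any fold, 15 of the 33 were higher and 10 lower with an edgeR adjusted p under 0.01, beside 57.1% of all genes in either direction. Il6, the main inducing cytokine, had 379 and 364 normalized counts in sham and 849 and 769 in PNX libraries, which gave a log2 fold change of 1.13 (SE 0.068, edgeR adjusted p = 2.0e-22). Lif, a cytokine of the same family, went from 512 ± 5.53 to 1443 ± 27.8 (SD, n = 2; 2.82-fold higher). Its receptor gene Lifr, named after its value was seen, had the lowest log2 fold change of the list at -0.74 (SE 0.023) and was not called.

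The most abundant genes of the list were not called, namely Il6st, the shared receptor chain (log2 fold change -0.48), Socs3, the feedback inhibitor (-0.41), Jak1 (-0.11) and Nfkbia, the NF-kB inhibitor (-0.17). Factors of the searched motifs, named outside the rule for genes and after their values were seen, were not called either. Their log2 fold changes were 0.13 for Stat3, 0.48 for Cebpb, -0.67 for Cebpd, -0.05 for Nfkb1 and -0.31 for Nr3c1, the glucocorticoid receptor. Among further NF-kB and C/EBP genes of the list, Relb (0.55), Nfkb2 (0.37) and Nfkbiz (0.65) were higher with an edgeR adjusted p under 0.01. Rela (-0.01) and Cebpa (-0.20) were not higher, and none of these further genes was called.

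Receptors and binding partners of these proteins were read from 23 genes, of which 22 could be tested, with 7 called higher (Cd163, Hmox1, Cd14, C1qa, C1qb, C1qc and Selp), 15 not called and a median log2 fold change of 0.15. Over all genes tested, 5.90% were called higher. Cd163, the receptor for haptoglobin bound to hemoglobin, went from 172 ± 13.0 to 968 ± 0.942 (SD, n = 2) normalized counts (log2 fold change 2.49, SE 0.077, edgeR adjusted p = 2.9e-37), and Hmox1, which degrades heme, from 1952 ± 11.6 to 5724 ± 71.7 (SD, n = 2; 1.55). Cd14, to which Lbp hands lipopolysaccharide, had 2830 ± 2.53 and 6363 ± 253 (SD, n = 2; 1.17).

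C1q, a ligand of pentraxin 3, rose in all 3 subunits, with log2 fold changes of 2.82 for C1qa, 2.98 for C1qb and 2.96 for C1qc. Selp (P-selectin, also bound by pentraxin 3) had a log2 fold change of 1.14 (SE 0.045). The most abundant genes that were not called were Cd36 (log2 fold change -0.59), Ager (-0.38), Lrp1 (0.31) and Scarb1 (0.05), the last a lipoprotein receptor that also binds serum amyloid A. Other receptors for serum amyloid A were also not called, with log2 fold changes of 0.08 for Fpr2 and 0.09 for Tlr2, named outside the rule after their values were seen, and the same held for the Lcn2 receptor Slc22a17 (-0.11).

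**Figure D4:**
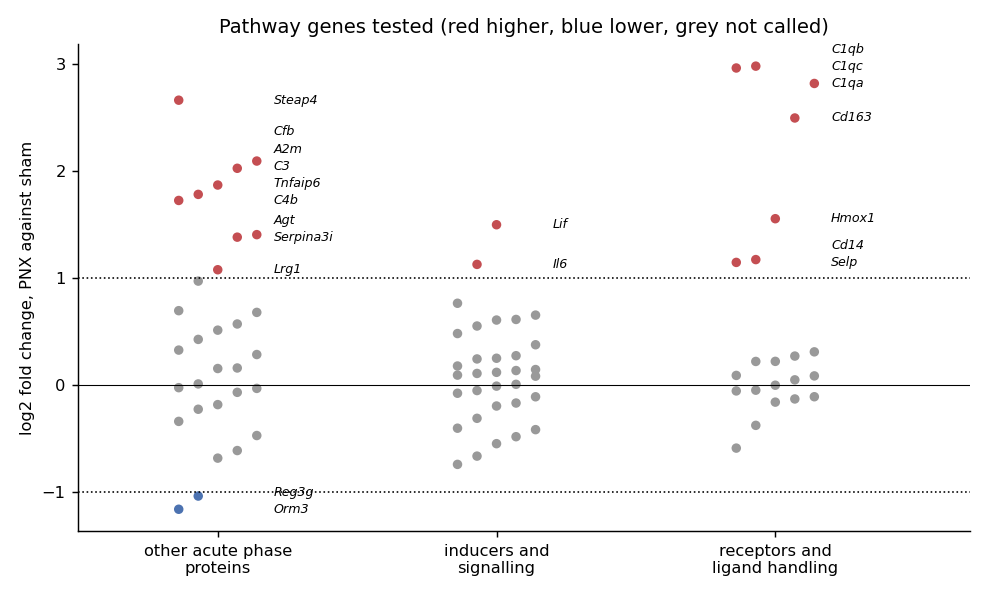
Log2 fold change (y axis, PNX against sham) of each tested gene of the 3 pathway lists, with genes called higher in red, lower in blue and others in grey, and the called genes named beside their points (some names are shifted to keep them apart). Dotted lines mark the fold threshold of 1 in either direction, and red points number 9 of 31 for other acute phase proteins, 2 of 33 for inducers and 7 of 22 for receptors, beside 5.90% of all genes tested, with differences between lists not tested.

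Markers of the cells that the bead capture was meant to yield, and of others it could hold, were read in the same libraries. Of all genes tested, 5.90% were called higher and 1.66% lower, and 57.1% had an edgeR adjusted p under 0.01 at any fold. Endothelial markers were present (12 of 12 tested, none called), with a summed level of 11127 to 11256 CPM in sham and 9703 to 9744 CPM in PNX libraries and a median log2 fold change of -0.22. At any fold, 10 of the 12 were lower and 1 higher with an edgeR adjusted p under 0.01. Fibroblast markers went from 1753 to 1767 CPM in sham to 5615 to 5639 CPM in PNX libraries, with 5 of 10 called higher. The collagen genes Col3a1, Col1a2 and Col1a1 dominated the sum after PNX, at 88246, 59345 and 45933 mean normalized counts. At any fold, 9 of the 10 were higher and 1 lower (Pdgfra, log2 fold change -0.23) with an edgeR adjusted p under 0.01. Mesothelial markers went from 369 and 369 CPM to 654 and 664 CPM, with 4 of 8 called higher.

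Macrophage markers, the class that includes C1q and Cd163, went from 3700 to 3716 CPM in sham to 4803 to 4821 CPM in PNX libraries, with 5 of 11 called higher. Lyz2 was by far the most abundant of them, at 144690 mean normalized counts in sham and 166749 after PNX (log2 fold change 0.20), and dominated the sum. Msr1 had the largest log2 fold change of the 11 at 3.14. At any fold, 10 were higher and 1 lower (Mertk, -0.33) with an edgeR adjusted p under 0.01. Pan-leukocyte markers were at 817 CPM in both sham libraries and 862 to 873 CPM after PNX, with none of 5 called. Adipocyte markers had 457 to 464 CPM in sham and 488 to 493 CPM in PNX libraries, with 4 of 8 called higher (Adipoq, Plin1, Fabp4 and Cfd), of which Adipoq, Plin1 and Cfd passed the low-count filter through the PNX libraries alone. These 3 were small parts of the sum, with mean normalized counts from 0.963 to 92.6, from 6.74 to 41.1 and from 7.64 to 427. At any fold, 5 of the 8 were higher and 2 lower with an edgeR adjusted p under 0.01. Airway secretory markers (3852 to 3867 CPM in sham, 1810 to 1874 CPM in PNX, 4 of 8 called lower) and alveolar type 2 markers (7443 to 7466 CPM, 4856 to 4891 CPM, none of 8 called) had lower sums after PNX. All 8 genes of either list were lower at any fold with an edgeR adjusted p under 0.01. The part of any of these cells in the values of Saa3, Ptx3, Serpina3n or the complement genes was not tested.

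**Figure D5:**
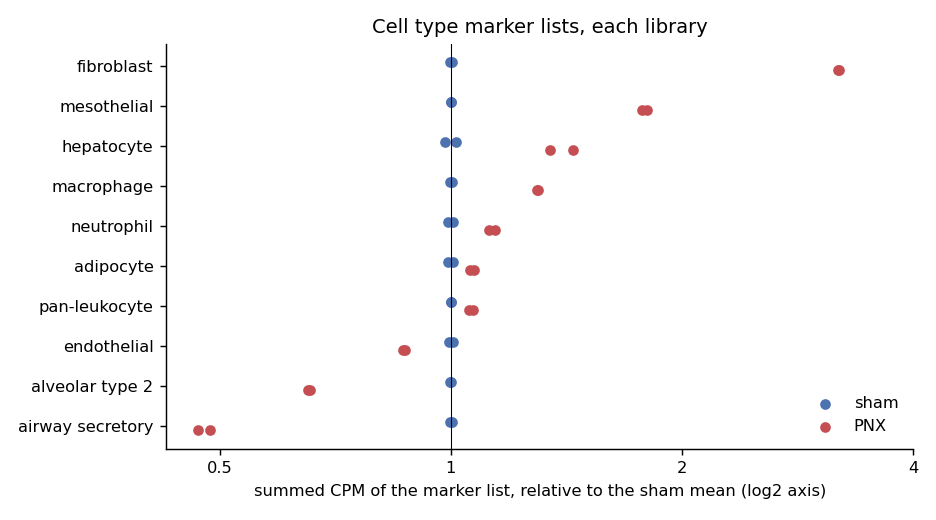
Summed CPM of each marker list in each library divided by the mean of the sham libraries (x axis, log2 axis), with sham in blue and PNX in red. Fibroblast markers reached a ratio of 3.20 and mesothelial markers 1.79, whereas endothelial markers were at 0.87 and airway secretory markers at 0.48 of sham.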

How the data were processed

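Polyadenylated RNA of bead-isolated lung ECs was sequenced from 4 libraries, 2 per group (stranded mRNA kit, paired ends, aligned to mm10; STAR is named in the submitters' processing notes, and the counting program is not given in the sources used here). The authors deposited whole-number counts for each of 33068 RefSeq transcripts, without normalization. The authors also deposited FPKM, scaled to transcript length and to the total over all transcripts, and TPM, which was not used. No row lacked a gene symbol.

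Where a symbol had several transcripts, that with the highest count over all libraries stood for it. The 10 genes, the pathway lists and the marker lists were chosen with earlier results of these data known. Counts were fitted in R 4.3.3 with edgeR 4.0.16 (TMM, filterByExpr, quasi-likelihood F test without covariates, Benjamini-Hochberg adjustment over 16208 genes). The standard error is the size of the log2 fold change divided by the square root of F. Ratios of summed counts carry exact conditional binomial intervals, which cover counting error only. Alternatives were other normalizations and filters, DESeq2 1.42.0, glmTreat, counts summed over transcripts, the replicate number as a block, and each library left out in turn. The fit was tested on simulated data.

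Besides the 10 genes, the text names from each pathway list up to 8 called genes with the largest change that averaged 50 or more normalized counts, the 4 most abundant uncalled genes, and the 5 genes nearest in pattern to Saa3 and to Lcn2. Called genes outside this limit are listed by name only. A few genes of the pathway lists were left out and are not reported here. Promoter windows came from RefSeq (GRCm38.p6), and transcript sequences for shared windows from GENCODE M21, aligned with Biopython 1.88. Gene positions are those of RefSeq GRCm38.p6.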

Additional observations from a re-analysis of the deposited data

How the results depend on the processing

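Saa3 and Ptx3 were called higher under all alternatives run, with log2 fold changes of 7.07 to 7.29 and of 2.12 to 2.38, and none of the 10 genes was called lower under any. Orm1 was called in the main fit but not by DESeq2's Wald test (2.19, adjusted p = 0.0455), by glmTreat, without sham replicate 2 (1.71) or without PNX replicate 2 (2.00), and it was not tested with a mean of at least 50 counts. Over its alternatives the adjusted p of Orm1 ran from 0.00031 to 0.0455. Saa1, tested only without a filter and by DESeq2, had adjusted p of 0.231 and 0.481.

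Scaling to 12 endothelial markers moved the median log2 fold change of all genes to 0.20 and the share of higher among called genes from 78.1% to 92.2%. It left 103 genes and 0 other acute phase proteins called lower, turned Hp to 0.14 (adjusted p = 6.5e-06) and Orm2 to 0.16, and took Serpina3n to 1.12, past the threshold. This scaling shifts every gene by nearly the same amount, so taking off that shift only returns the main values and adds no check. Orm2 also changed sign without sham replicate 2 (0.12) and without PNX replicate 1 (0.42), over a range of -0.62 to 0.42 in fits that omit a library.

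With a mean of at least 50 counts, 160 genes were called lower in place of 269. Other acute phase proteins called lower numbered 1 under that filter, with DESeq2 and with counts summed over transcripts. With glmTreat, 604 genes were called higher and 39 lower (93.9% higher), with 0 other acute phase proteins lower and 1 inducer higher. In fits that omit a single library, other acute phase proteins called lower ranged from 0 to 2. The causes of these changes were not tested. The stricter filter also left fewer genes to test, 14298 in place of 16208.

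The replicate numbers do not pair animals, and deviations of same-numbered libraries had a correlation of 0.020 over genes. With the replicate block, 957 genes were called higher and 272 lower, and Saa3, Orm1 and Ptx3 were the members called. With 2 pooled libraries per group, an effect of a single mouse cannot be told apart from that of its pool. RPKM computed on the totals of the transcripts used were larger than the deposited FPKM for each of the 10 genes above 0, for Saa3 after PNX 549.7 in place of 346.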

Other observations

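The Serpina3 genes that neighbour Serpina3n on chromosome 12 differed in direction. Serpina3g had 683 ± 25.7 (SD, n = 2) normalized counts in sham and 1009 ± 75.1 (SD, n = 2) in PNX libraries, with a log2 fold change of 0.57 (SE 0.057, edgeR adjusted p = 2.1e-13). Serpina3c (-0.47, adjusted p = 1.1e-05) and Serpina3f (-0.34, adjusted p = 0.000785) were lower by less than the fold threshold, and Serpina3m (0.28, adjusted p = 0.251) did not pass. With endothelial marker scaling all log2 fold changes shift upward by about 0.20, which would leave Serpina3c and Serpina3f below 0. These genes share sequence with Serpina3n, so that their reads may be split among them, and they were named after their values were seen.

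Metallothioneins, metal-binding proteins that are induced with the acute phase response, were higher without passing the fold threshold. Mt2 went from 570 ± 2.09 to 1115 ± 36.2 (SD, n = 2) normalized counts (log2 fold change 0.97, SE 0.056, edgeR adjusted p = 2.0e-23) and Mt1 from 1250 ± 92.0 to 1993 ± 16.6 (SD, n = 2; 0.68). Il1rn, the interleukin 1 receptor antagonist, had a log2 fold change of 0.51 (SE 0.037), Il1r1, the signalling receptor, of 0.76 (0.032), Il1a of 0.61 (0.045) and Osm, oncostatin M, of 0.61 (0.031). Il6ra, the specific receptor chain for interleukin 6, was lower by less than the threshold (-0.55, SE 0.037). None of these was called, and all were named after their values were seen.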
